A study of Arabidopsis thaliana with 4 samples.

Results

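The genes described here are the autophagy genes of Arabidopsis thaliana that the array annotation names with the symbol ATG or APG and a digit, each with a probe set assigned to exactly 1 gene. The rule found 10 such genes among 13513 probe sets with 1 gene, and it used names only, no measured value. They are ATG3 and the 9 forms of ATG8, named ATG8A to ATG8I. The annotation gives ATG8A under the symbol APG8A and ATG8I under the symbol APG8H, with the ATG names as synonyms, so APG8H (AT3G15580) is not ATG8H (AT3G06420). Every member had a probe set above the filter on dim signals, and their intensities ran from 98.5 to 1143.1 over the 4 arrays, against a floor of 19.2.

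Whole 10-day-old plants were measured on Affymetrix ATH1 arrays, 1 array for each of 4 groups. Every array holds RNA of 10 pooled plants. The study's wild type was WS (ecotype ws-2), either untreated (WS control) or given 100 µM abscisic acid for 3 h (WS ABA). The line gpa1, a T-DNA insertion line with the same ecotype label, was likewise untreated (gpa1 control) or treated (gpa1 ABA). No mock treatment of the control plants is given in the sources used here. Abscisic acid (ABA) is a plant hormone that rises in drought and keeps seeds dormant. GPA1 encodes the G-protein alpha subunit of this species. The labels place the insertion at At3g26300, which the annotation names CYP71B34, so the locus and the line's name do not match, and GPA1 itself was not analysed here. The series title poses the question of how wild type and gpa1 differ in their response to ABA.

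With 1 array per group, a comparison of 1 array with another has no replicate check. The tests below average the ABA change over both genotypes, or the genotype difference over both treatments, so that the other factor stands in for replication. All contrasts share the same 4 arrays. Values are linear probe-set intensities as deposited, and differences are on the log2 scale unless given as folds. With 1 sample a group, fewer cells of a type and less RNA per cell cannot be told apart. Values of listed shoot and root markers are given beside the whole-plant label, with no threshold that could test it. Of 8 shoot markers 4 had a named probe set (LHCB4.1, LHCB4.2, LHCB4.3 and RCA), with summed intensities of 14299.8 in untreated WS, 9899.0 in treated WS, 11908.0 in untreated gpa1 and 12010.5 in treated gpa1. Of 7 listed names of root markers 3 had one (EXPA7, EXPA18 and PYK10), with sums of 3310.8, 2329.3, 2613.3 and 2554.3 in the same order. No marker was at 0. Both sums were highest in WS control and lowest in WS ABA. The geometric mean of 9 spike-in controls was 687 in WS control and 395 in WS ABA, and in gpa1 it was 456 in control and 641 in ABA.

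Autophagy carries parts of the cytoplasm into the vacuole for breakdown inside a double membrane, the autophagosome. ATG8 is a small ubiquitin-like protein that is attached to a membrane lipid, phosphatidylethanolamine, and sits on the growing autophagosome, where it binds cargo receptors. ATG4 proteases trim its C terminus to a glycine, ATG7 activates it, and ATG3 is the conjugating enzyme that hands it to the lipid. Plants hold a family of ATG8 forms. ATG8A to ATG8D and ATG8E to ATG8G form related groups, and ATG8H and ATG8I are the more distant forms whose C terminus already ends at the glycine. Starvation, senescence and stress are known to raise ATG8 transcripts in plants.

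After ABA, 5 of the 9 ATG8 forms were higher and none was lower, and ATG3 did not pass the test. The 5 were ATG8H, ATG8A, ATG8E, ATG8B and ATG8I, with averaged rises from 1.32-fold to 2.52-fold. The other 4 forms, ATG8C, ATG8D, ATG8F and ATG8G, had averaged log2 changes between -0.10 and 0.17 and did not pass. No member passed the test for a difference between gpa1 and WS. Over all 13647 tested probe sets, limma called 17.1% higher and 25.7% lower with ABA, so 5 of 10 members were called higher and 0 lower beside a background in which falls were the more frequent. With each array centred on its median the split over all probe sets turned, to 2863 higher and 2284 lower in place of 2327 and 3507, and the members' calls then were 6 higher and 0 lower. At an unadjusted p under 0.05, limma gave 6 members higher and 0 lower with ABA. The median averaged ABA change was 0.36 over the 10 members and 0.41 over the 9 ATG8 forms, against -0.16 over all tested probe sets. Both ABA arrays read above both control arrays for 7 of the 10 members, against 24.3% of all tested probe sets. These 7 were the 5 called forms, ATG3 and ATG8G.

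**Figure D1:**
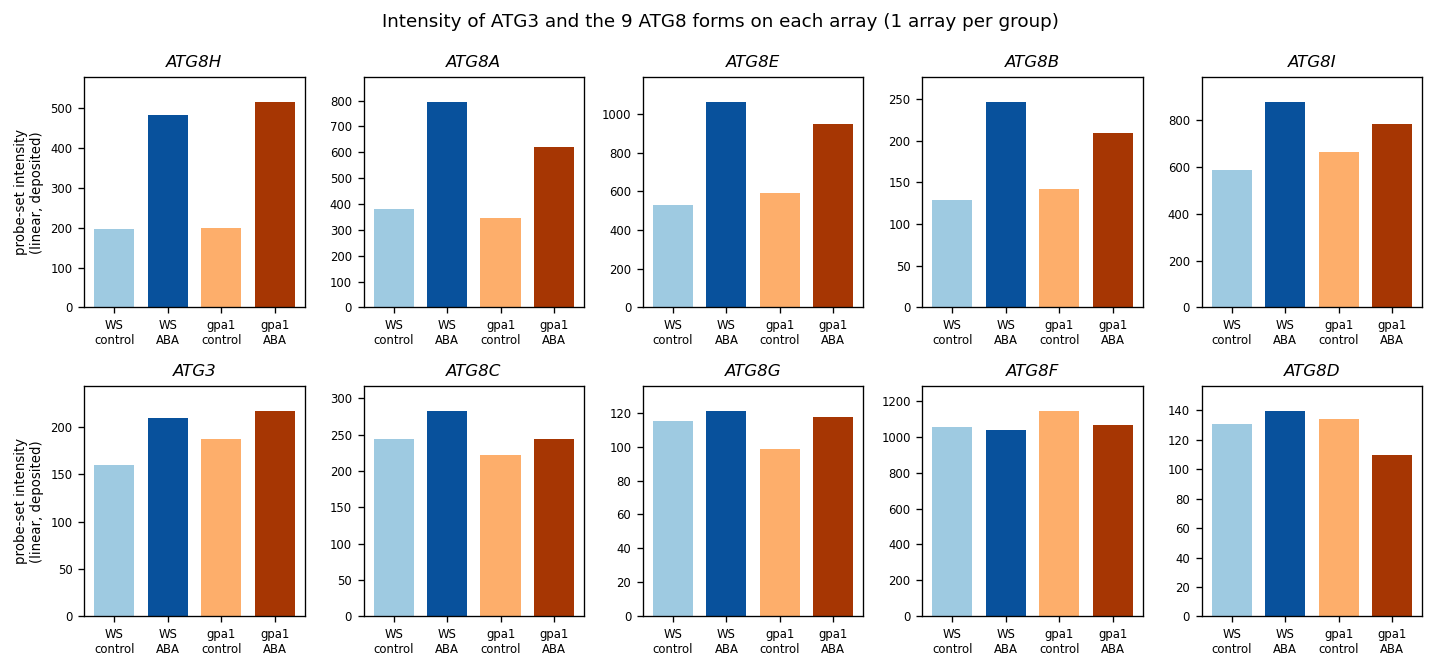
Deposited probe-set intensity (linear scale, vertical axis from 0, own scale in each panel) of each gene on the 4 arrays; each bar is 1 array, so there are no error bars. The panels are ordered by averaged ABA change. In the upper row both ABA bars stand above both control bars for ATG8H, ATG8A, ATG8E, ATG8B and ATG8I. In the lower row ATG3 and ATG8G show that order too, and ATG8C, ATG8F and ATG8D do not. The order held for 7 of the 10 genes, against 24.3% of all tested probe sets.

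The conjugation step was represented by ATG3 (AT5G61500), whose intensity was 159.4 in untreated WS, 209.7 in treated WS, 186.6 in untreated gpa1 and 216.7 in treated gpa1. Both ABA arrays read above both control arrays, though gpa1 control lay nearer to the ABA arrays than WS control did. The averaged ABA change of ATG3 was 0.31 ± 0.15 (SE) with a limma adjusted p of 0.0917. In WS the change was 1.32-fold and in gpa1 1.16-fold. With each array centred on its median, in place of a common trimmed mean, the averaged change was 0.45 with a limma adjusted p of 0.011.

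ATG8A (AT4G21980, symbol APG8A) read 380.3 in untreated WS, 795.1 in treated WS, 344.8 in untreated gpa1 and 619.4 in treated gpa1. The ABA arrays stood well above the control arrays in both genotypes, and gpa1 read lower than WS under both treatments. The fold for ATG8A was 2.09 in WS against 1.80 in gpa1. The averaged change was 0.95 ± 0.14 (SE), and limma's adjusted p was 3.75e-09. ATG8B (AT4G04620) read 129.4, 246.8, 142.5 and 209.2 in the same order of arrays. Again the ABA arrays did not overlap the control arrays, with WS ABA the highest. In WS the rise was 1.91-fold and in gpa1 1.47-fold, and the averaged change was 0.74 ± 0.15 (SE) with a limma adjusted p of 2.10e-05.

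The remaining members of the same group of forms did not pass. ATG8C (AT1G62040) read 244.7 in untreated WS, 282.9 in treated WS, 221.9 in untreated gpa1 and 243.6 in treated gpa1. WS ABA was the highest, and gpa1 ABA lay just under WS control, so the treatments overlapped. Its averaged ABA change was 0.17, with a 95% interval from -0.11 to 0.46 and a limma adjusted p of 0.348. ATG8D (AT2G05630) read 130.7, 139.6, 133.9 and 109.4 in the same order. Its lowest array was gpa1 ABA, and the other 3 lay close together. Its averaged change was -0.10, with a 95% interval from -0.44 to 0.24 and a limma adjusted p of 0.682. The sign of this averaged change was positive under median centring, at 0.05.

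In the group of ATG8E to ATG8G, ATG8E moved apart from the other members. ATG8E (AT2G45170) read 528.8 in untreated WS, 1061.8 in treated WS, 593.2 in untreated gpa1 and 949.6 in treated gpa1. The treatments were well separated, and the order of the 4 arrays was the same as for ATG8B. A 2.01-fold rise in WS and a 1.60-fold rise in gpa1 averaged to 0.84 ± 0.15 (SE), with a limma adjusted p of 1.01e-06.

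ATG8F (AT4G16520) read 1054.1 in untreated WS, 1034.9 in treated WS, 1143.1 in untreated gpa1 and 1066.9 in treated gpa1. These 4 values lay close together, and gpa1 control was the highest. The averaged change of ATG8F was -0.06, with a 95% interval from -0.39 to 0.27 and a limma adjusted p of 0.794. Under median centring it was 0.08, so its sign also rests on the scaling. ATG8G (AT3G60640) read 115.3, 121.0, 98.5 and 117.2 in the same order. Its lowest array was gpa1 control, and both ABA arrays read slightly above WS control. The averaged change of ATG8G was 0.16, with a 95% interval from -0.20 to 0.52 and a limma adjusted p of 0.502. Among the 4 forms that did not pass, the interval of ATG8G reached the highest upper bound.

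Among the forms that end at the glycine, ATG8H had the largest ABA change of all 10 members. ATG8H (AT3G06420) read 197.2 in untreated WS, 483.3 in treated WS, 199.3 in untreated gpa1 and 515.4 in treated gpa1. The control arrays read nearly alike, and so did the ABA arrays, with gpa1 ABA the higher. A 2.45-fold rise in WS and a 2.59-fold rise in gpa1 averaged to 1.33 ± 0.14 (SE), with a limma adjusted p of 5.08e-16. Of the 13647 tested probe sets, 744 (5.45%) had a larger averaged rise. ATG8I (AT3G15580, symbol APG8H) read 587.6, 876.7, 663.5 and 780.8 in the same order of arrays. The ABA arrays lay above the control arrays, but gpa1 control and gpa1 ABA were closer to each other than the WS arrays were. The fold for ATG8I was 1.49 in WS against 1.18 in gpa1, and its averaged change was 0.41 ± 0.15 (SE) with a limma adjusted p of 0.0219. That call was lost without the intensity trend in the variance (adjusted p of 0.104).

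**Figure D2:**
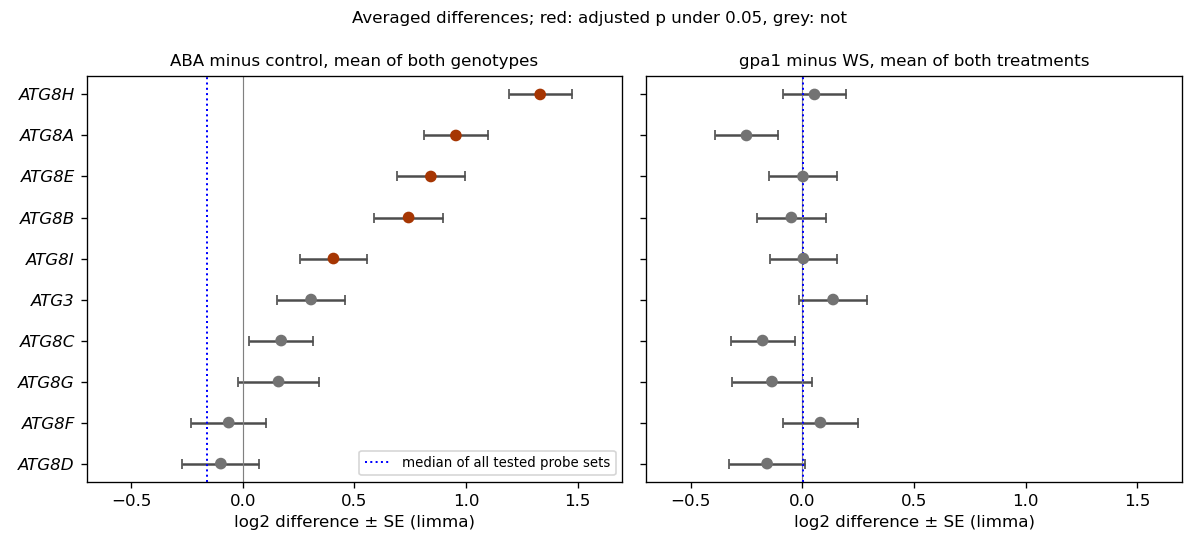
Averaged log2 difference of each gene with its limma SE (horizontal bars), for ABA minus control on the left and gpa1 minus WS on the right, with the median of all tested probe sets as a dotted line. ATG8H, ATG8A, ATG8E, ATG8B and ATG8I pass the ABA test (red), and no gene passes the genotype test.

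The calls of the ATG8 forms differed in how they held under a change of model or without 1 array. In the reported fit, limma's standard errors carry a median of 171 prior degrees of freedom from all probe sets against 1 of the gene itself. With treatment alone that median was 5.09, and without 1 array it was between 2.29 and 3.56. A lost call in those fits therefore does not by itself show dependence on a single array. With the treatment fitted alone, and then also without each array in turn, ATG8H was called in all 5 fits, with adjusted p-values up to 0.0318. Without 1 array, one treatment has a single array, which is assumed to vary like the other treatment's arrays, and the genotypes are unbalanced between treatments. ATG8A kept its call without gpa1 ABA and lost it without WS control, WS ABA or gpa1 control, with adjusted p-values of 0.0588, 0.0635 and 0.075. ATG8E kept its call without gpa1 control and lost it without WS control, WS ABA or gpa1 ABA (0.0709, 0.0698 and 0.0555). ATG8B lost its call without each of WS control, WS ABA, gpa1 control and gpa1 ABA (0.11, 0.0942, 0.0757 and 0.0615), and ATG8I lost it already with the treatment alone (0.0651). For each of these 5 forms both ABA arrays read above both control arrays, so the averaged change could only be positive in these fits. By construction, the values without 1 array also lie on both sides of the reported one, so neither point checks the calls. The averaged change ran from 1.29 to 1.38 for ATG8H, 0.77 to 1.13 for ATG8A and 0.76 to 0.93 for ATG8E. For ATG8B it ran from 0.62 to 0.86, and for ATG8I from 0.32 to 0.49. Over all tested probe sets the calls also fell in these fits, from 2327 higher to between 732 and 1001 without 1 array.

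**Figure D3:**
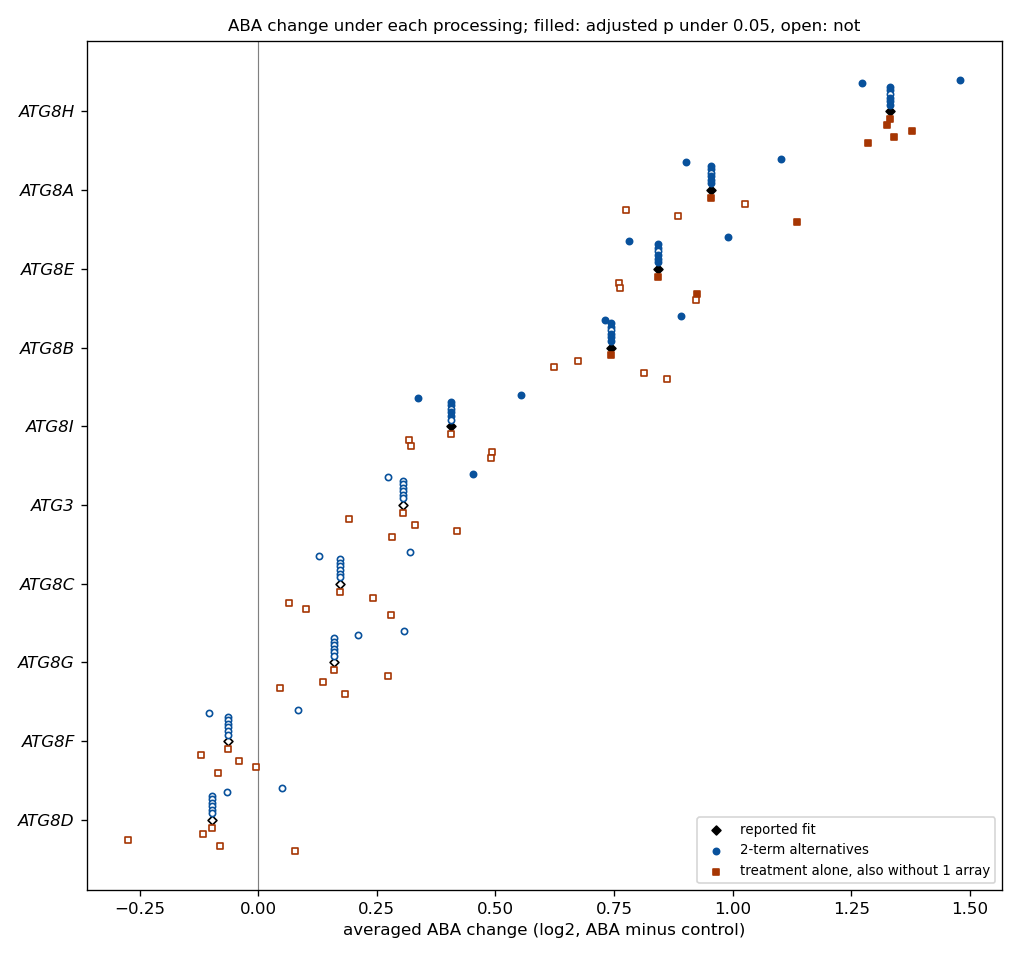
Averaged ABA change (log2, horizontal axis) of each gene in the reported fit (black diamond), under 8 alternatives that keep both treatment and genotype (blue circles) and with treatment alone on all 4 arrays or without 1 array (red squares); filled symbols have an adjusted p under 0.05. Vertical offsets within a gene only keep symbols apart. ATG8H is filled in every red symbol, and ATG8I in none.

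At least 2-fold on single arrays, 3 of the 10 members were higher with ABA in WS (ATG8A, ATG8E and ATG8H), against 8.61% of all tested probe sets. In gpa1 only ATG8H reached that fold, 1 of 10 against 7.84%. The WS count rests on the scaling: it was 4 under median centring and 2 under quantile normalization. The gpa1 count was 1 under both. No member fell 2-fold in either genotype, where the background was 6.73% in WS and 6.88% in gpa1. These are counts at a fold with no test, and ATG8A at 1.80-fold and ATG8E at 1.60-fold in gpa1 lay below the threshold.

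The signed difference, the gpa1 ABA change minus the WS ABA change, was below 0 for 8 of the 10 members, all except ATG8G and ATG8H. For ATG8D and ATG8F among these 8 the change in gpa1 was a decrease larger in size than the change in WS. A difference below 0 held for 51.0% of all tested probe sets, and for 57.0% of those called higher with ABA. Among the 5 called members it held for 4. The difference was -0.38 for ATG8B, -0.34 for ATG8I, -0.33 for ATG8E and -0.22 for ATG8A. It was 0.08 for ATG8H and 0.18 for ATG8G. These differences cannot be tested with 1 array per group, and differences as large as those of ATG8B, ATG8I, ATG8E and ATG8A or larger were common, at 32.6% to 56.3% of all tested probe sets. Beside them, the same difference was 1.29 for the spike-in controls. With ABA the sum of shoot markers went from 14299.8 to 9899.0 in WS and from 11908.0 to 12010.5 in gpa1. That of root markers went from 3310.8 to 2329.3 in WS and from 2613.3 to 2554.3 in gpa1. Both sums thus fell in WS and changed little in gpa1. The 25S rRNA signal was 2235.9 in WS control and 958.7 in WS ABA, and in gpa1 it was 1549.8 in control and 1800.2 in ABA. The scanner background was 56.26 for WS control and 67.04 to 69.51 for the other arrays. The part of these measures in the members' differences was not tested.

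**Figure D4:**
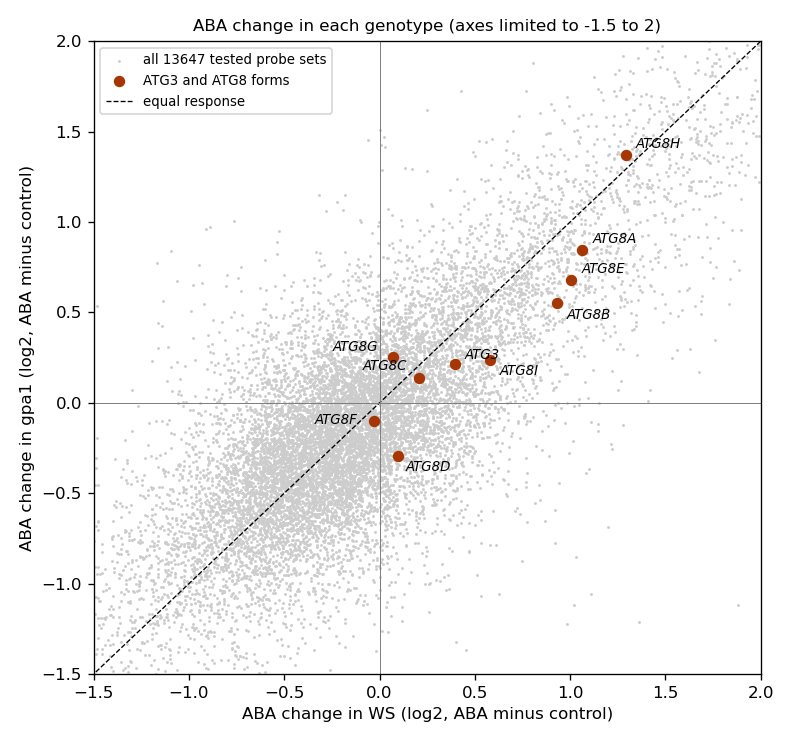
ABA change in WS (horizontal axis) against ABA change in gpa1 (vertical axis), both log2, for the 10 genes (red) and all tested probe sets (grey, of which 847 lie outside the axes); the dashed line marks equal change. ATG8H lies near the line, while ATG8A, ATG8E, ATG8B and ATG8I lie below it.

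No member was called different between the genotypes. The averaged gpa1 minus WS difference ranged from -0.25 for ATG8A to 0.14 for ATG3, with a median of -0.02 over the 10 members and 0.00 over all tested probe sets. At an adjusted p under 0.05 limma called 0 of 10 members in either direction, against 1.42% of all tested probe sets higher and 1.48% lower in gpa1. At an unadjusted p under 0.05 it also gave 0 members in either direction. ATG8A, the member farthest from 0, had a 95% interval from -0.53 to 0.03 and a limma adjusted p of 0.552. The ratio of its gpa1 to its WS intensity was 0.907 without ABA and 0.779 with ABA. For ATG8H the interval ran from -0.22 to 0.33, and for ATG8E from -0.30 to 0.30. No member differed 2-fold between genotypes on single arrays, where 1.14% of tested probe sets did without ABA and 1.76% with ABA. Without ABA, 7 of the 10 members read higher in gpa1, against 50.6% of all tested probe sets, and with ABA 7 of 10 read lower in gpa1, against 50.4%. Both counts share arrays with the comparison of the ABA changes and are not separate observations.

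The ATG8 forms also differed among themselves in how their 4 values ran. After each gene was centred on its own mean, the root mean square distance between log2 profiles was smallest for ATG8B and ATG8E (0.0576), forms of different groups, and ATG8C and ATG8G followed at 0.0675. It was largest for ATG8D and ATG8H, at 0.732. Among the other 7284 tested probe sets with 1 gene, those nearest to ATG8H were AT3G19030, AT3G54200, AT4G27280, AT5G18130 and AT5G08350, at distances from 0.03 to 0.0454. Those nearest to ATG8D were AT5G06260, AT2G16630, AT5G55550, AT5G51880 and AT2G05720, at 0.0126 to 0.0201. All 5 of these shared with ATG8D a lowest value in gpa1 ABA, which follows from their choice by this distance.

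Other steps of autophagy were sparsely covered. No member belongs to the initiation complex, to membrane supply or to the lipid kinase complex. ATG101 (AT5G66930), a subunit of the kinase complex that starts autophagosome formation, is no member because its array symbol is the locus, and the annotation gives ATG101 as a synonym. Its intensity was 130.1 in untreated WS, 160.7 in treated WS, 141.4 in untreated gpa1 and 179.9 in treated gpa1. Both ABA arrays read above both control arrays, by 1.24-fold in WS and by 1.27-fold in gpa1. The averaged change of ATG101 was 0.33 ± 0.16 (SE) with a limma adjusted p of 0.0918, and under median centring 0.47 with 0.0126. Other ATG genes of the core machinery, among them ATG5, ATG7 and ATG9, were not analysed here.

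Of 19 listed autophagy genes without an ATG symbol, 1 had a probe set under its name: RAPTOR1, a partner of the TOR kinase, which represses autophagy when nutrients are plentiful. RAPTOR1 read 128.0, 142.2, 134.7 and 121.9 in the same order of arrays, with an averaged ABA change of 0.00 (95% interval from -0.33 to 0.34) and a limma adjusted p of 0.989. The array highest for RAPTOR1 was WS ABA and the lowest gpa1 ABA.

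The vacuolar processing enzymes are proteases of the compartment that receives autophagosomes. Of 4 with a named probe set 2 were tested, of which 1 rose and none fell, beside 17.1% higher and 25.7% lower over all tested probe sets. BETA-VPE read 53.5 in untreated WS, 125.3 in treated WS, 40.2 in untreated gpa1 and 132.7 in treated gpa1. The treatments did not overlap, and the rise was larger in gpa1. The fold was 2.34 in WS against 3.30 in gpa1, and the averaged change was 1.48 ± 0.21 (SE), with a limma adjusted p of 1.04e-09. With treatment alone, BETA-VPE was not called without WS ABA (adjusted p of 0.0623) or without gpa1 ABA (0.0659). GAMMA-VPE, with intensities from 1626.7 to 2002.3, had an averaged change of 0.22 ± 0.20 (SE) and did not pass. ALPHA-VPE and DELTA-VPE were too dim to be tested, at 8.4 to 39.3.

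Of 11 listed senescence genes 3 had a named probe set and 2 were tested. SAG29, a sugar transporter, was listed at 6.7 and 5.1 on the control arrays, below the floor, and at 1124.9 in WS ABA and 951.3 in gpa1 ABA, at least 58.6-fold and 49.5-fold higher. It passed the filter only through the ABA arrays, so no test of SAG29 is given. SAG101 had an averaged change of 0.21 ± 0.26 (SE) and did not pass, and WRKY53 was too dim to be tested, at 21.6 to 33.4. None of the 7 listed sugar starvation genes had a named probe set.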

How the data were processed

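Per the labels' protocols, RNA extraction used Trizol and a Qiagen kit, and biotin-labelled cRNA was hybridised to 1-colour ATH1 arrays. The authors deposited linear probe-set intensities of 22810 probe sets, with a 2%-trimmed mean near 100.0 on every array. The sources used here do not give the summarising program. 64 control probe sets were set aside. Intensities were scaled to a common trimmed mean, raised to a floor at the 30th percentile (19.2) and put on the log2 scale. Tests covered the 13647 probe sets whose mean log2 intensity exceeded the 40th percentile. limma 3.58.1 in R 4.3.3 fitted treatment and genotype without interaction, leaving 1 residual degree of freedom, with eBayes and an intensity trend. Tests were two-sided, with Benjamini-Hochberg adjustment over all tested probe sets at 0.05. The script was tested on simulated data. The residual of each probe set is the difference between its gpa1 and WS ABA changes, which is also described above. The p-values set a change against that difference pooled over all tested probe sets. They do not measure spread within a group, which 1 array per group cannot give. Where nothing marks separate cultures, they cover only these arrays.

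Names came from the platform annotation, updated through gene identifiers to RefSeq (TAIR10.1), which matched all 10 members. It gave several genes for 503 probe sets and did not list 8730. All 10 probe set IDs end in a plain _at. The probes' sequences were not used here, so signal shared between ATG8 forms was not checked. Every member was named; related genes were named where the annotation carries the listed name. Members and lists were chosen with earlier results of these data known.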

Additional observations from a re-analysis of the deposited data

Results flagged for a closer look

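ATG8D was the only member whose ABA change had opposite signs in the 2 genotypes. The log2 change was 0.10 in WS and -0.29 in gpa1. The difference was not tested, since each change rests on 1 array against another, and 31.6% of all tested probe sets had a difference between genotypes at least as large.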

How the results depend on the processing

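Of 5 members called higher with ABA, none was called without the filter on dim probe sets, where limma called 0 of 22746 probe sets and the prior degrees of freedom fell to 0.855, since probe sets at the floor on all arrays have no variance. Without those probe sets, an alternative chosen after seeing the data, the count was again 5. With treatment alone and 1 array left out it was 1 to 2, and fewer arrays entered each fit. The other alternatives (median centring, quantile normalization, floors at the 15th and 45th percentiles, a filter at the 60th, no trend, treatment alone) gave counts within 1.5 times of 5. Median centring moved the median ABA change of all tested probe sets from -0.16 to -0.01 and turned the sign of ATG8D (0.0494) and ATG8F (0.0847). Relative to the median of all probe sets in the reported fit, ATG8D stood at 0.06 and ATG8F at 0.10. Without 1 array, the ABA change of ATG8D ran from -0.274 to 0.0776 and that of RAPTOR1 from -0.11 to 0.12. Quantile normalization turned the genotype difference of ATG8E from 0.0023 to -0.0425 and of ATG8I from 0.0041 to -0.0216. All of these values are small beside the SE of 0.15 that both had in the reported fit, and the cause was not tested. With genotype alone and 1 array left out, which by construction leaves treatment unbalanced between genotypes, that difference ran from -0.0605 to 0.335 for ATG3, -0.78 to 0.28 for ATG8A, -0.52 to 0.42 for ATG8B, -0.50 to 0.51 for ATG8E, -0.63 to 0.74 for ATG8H and -0.28 to 0.29 for ATG8I. Genotype calls over all probe sets were 42 higher and 66 lower without the trend, and 0 with genotype alone, against 194 and 202. Replicate numbers pair nothing, since each group has 1 array, and the reported fit already compares ABA with control within each genotype. The number of arrays limits the precision.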
